A study of Arabidopsis thaliana with 12 samples.

Results

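Leaves of an Arabidopsis thaliana line carrying TaF5H1, a wheat gene, were compared with leaves of wild type (Col-0) after both had spent 6 h in 200 mM NaCl. The comparison used 6 of the 12 RNA-sequencing libraries of the study, 3 of each genotype, and covered the 17038 of 34218 genes whose mean level over the 12 libraries was at least 1 FPKM (fragments per kilobase of exon and scaled to library size, as the authors deposited it). Seedlings were 14 days old (given as 2 weeks in another label), and the sampled tissue is labelled as leaves. The other 6 libraries came from seedlings of both genotypes kept 6 h in nutrient solution without added salt. They lent their replicate spread to the tests and gave the genotype difference without salt that is set beside the results.

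TaF5H1 was driven by its own wheat promoter (pTaF5H1:TaF5H1) and not by a strong viral one. The labels do not say how many independent transformants the line stands for, nor how the seedlings of a library were pooled, and the wheat transcript itself was not analysed here. The series description calls the 3 libraries of a group biological replicates, so p-values measure the spread between those libraries. In bulk leaf RNA, fewer cells of a type and less RNA per cell cannot be told apart.

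Ferulate 5-hydroxylase is a cytochrome P450 that adds a hydroxyl group to the aromatic ring of lignin precursors. It opens the route to syringyl lignin and to sinapate, whose esters collect in Arabidopsis leaves. Salt stress in leaves is known for abscisic acid (ABA) signalling, sodium exclusion and the halt of growth and photosynthesis, while salicylate is the hormone that leads defence against biotrophic pathogens and also rises in ageing leaves.

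The tissue label was checked against marker genes. Summed FPKM of 6 leaf genes was 4084, 4275 and 4320 in wild type under salt and 2316, 554 and 531 in the line, and 5 of the 6 genes were lower in the line. The 7 root markers together never passed 0.56 FPKM in these 6 libraries, and EXPA7, LRX1 and PRP3 among them were at 0 in all of them. The 4 guard cell markers summed to 20.1 to 21.7 in wild type and to 21.6 to 28.0 in the line, with 1 called higher.

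Some libraries stood apart from their fellows. Replicate 1 of the salt-treated line lay nearer to wild type: over genes its log2 counts, scaled to library size, correlated at 0.931 and 0.935 with replicates 2 and 3 of its own group, which correlated at 0.989 with each other, and at 0.958 to 0.973 with the 3 wild-type libraries. On component 1 of a principal component analysis of the 6 libraries (81.0% of the variance), wild type lay at -55.8, -49.3 and -67.2, replicate 1 of the line at -11.6 and replicates 2 and 3 at 94.1 and 89.8. Results are therefore given with and without that library. Replicate 3 of salt-treated wild type held more RNA of growing-point and flower genes: its 3 shoot meristem markers summed to 8.59 FPKM against 0.58 and 0.48 in its fellows, and its 3 flower markers to 3.17 against 0.26 and 0.64. In the line without salt, the meristem markers of replicate 2 summed to 2.53 against 0.05 and 0 in its fellows. The flower markers of that library, at 0.48, lay between those of its fellows (0.65 and 0.18).

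**Figure D1:**
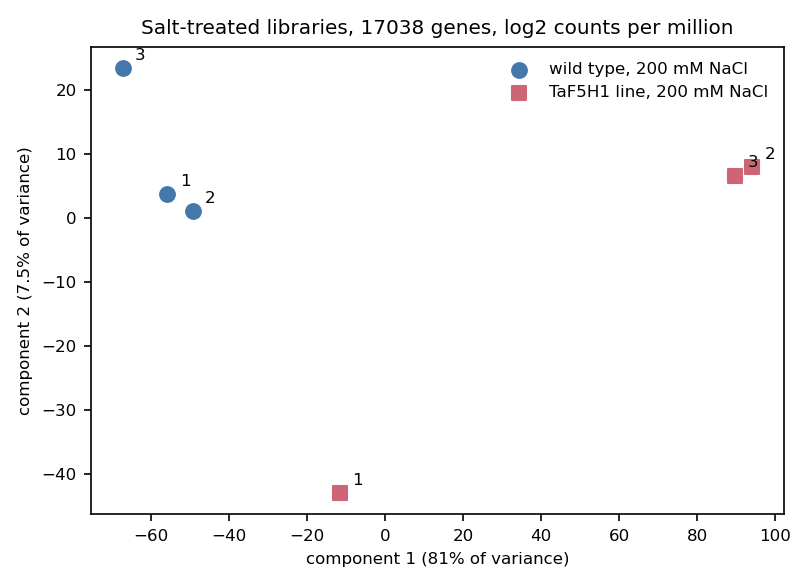
Principal component analysis of the 6 salt-treated libraries over 17038 genes (log2 counts scaled to library size). Each point is a library, numbered by replicate, with circles for wild type and squares for the TaF5H1 line. Replicate 1 of the line sits at -11.6 on component 1, between the wild-type libraries (-67.2 to -49.3) and replicates 2 and 3 of the line (94.1 and 89.8).

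The 250 bases before the annotated start of 3 genes are shown as examples of motif matches, in 2 salicylate genes that were higher in the line and in an antenna gene that was lower. Capitals mark TTGAC or its reverse complement GTCAA, the core of the W-box to which WRKY factors bind, in SARD1 and WRKY70. In LHCB4.1 they mark the G-box CACGTG, known from light-regulated genes, and 2 W-box cores in that window are not marked. Coordinates are on TAIR10.1, the sequence is RefSeq's, and each is written 5′ to 3′ on the strand of its gene.
SARD1 promoter, chr1:27749249-27749498, minus strand: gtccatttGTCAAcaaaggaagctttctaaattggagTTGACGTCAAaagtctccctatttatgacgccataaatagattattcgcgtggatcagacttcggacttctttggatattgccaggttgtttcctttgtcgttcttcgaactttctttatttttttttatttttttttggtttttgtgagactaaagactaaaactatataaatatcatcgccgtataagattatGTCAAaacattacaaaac
WRKY70 promoter, chr3:20910624-20910873, minus strand: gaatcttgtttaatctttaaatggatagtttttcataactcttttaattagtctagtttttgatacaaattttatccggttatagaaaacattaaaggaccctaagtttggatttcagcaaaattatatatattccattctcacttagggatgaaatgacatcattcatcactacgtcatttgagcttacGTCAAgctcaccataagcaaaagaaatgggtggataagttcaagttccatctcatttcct
LHCB4.1 promoter, chr5:208616-208865, plus strand: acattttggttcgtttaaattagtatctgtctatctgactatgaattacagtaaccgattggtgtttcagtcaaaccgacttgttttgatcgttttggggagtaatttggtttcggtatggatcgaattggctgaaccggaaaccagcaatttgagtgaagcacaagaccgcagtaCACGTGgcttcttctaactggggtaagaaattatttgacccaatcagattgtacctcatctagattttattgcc
These 3 were picked after the matches were known. In the motif shares that follow, higher and lower genes are only those also called in the same direction without replicate 1 of the line. A W-box core on either strand was present in 44.7% of all 16922 windows of tested genes, in 57.3% of the 1043 windows of genes called at least 2-fold higher in the line and in 37.8% of the 1760 windows of genes called at least 2-fold lower. SARD1 had 4 such matches, LHCB4.1 had 2, WRKY70 had 1, and no match was found in the windows of ICS1, CBP60G, NIMIN1, WRKY54 or FMO1. The G-box was in 7.71% of all windows, 8.05% of those of higher genes and 7.05% of those of lower genes. By list, a W-box core was in 6 of 12 windows of salicylate synthesis, 7 of 15 (46.7%) of salicylate output and 7 of 22 (31.8%) of the antenna, photosystem and Rubisco list, and the G-box in 0 of 12, 2 of 15 and 6 of 22 (27.3%). The ABRE core ACGTG, which lies within the G-box and is bound by ABA factors, was in 23.7% of all windows, 30.3% of those of higher and 22.8% of those of lower genes. The heat shock element GAANNTTC was in 9.48%, 16.7% and 7.33%. Each of these shares is a description, and a match is not evidence of binding.

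Under salt edgeR's quasi-likelihood test called 5888 of 17038 genes between the line and wild type at a Benjamini-Hochberg adjusted p under 0.05 (34.6%), 2652 higher in the line (15.6%) and 3236 lower (19.0%). At least 2-fold differences made up 2833 of the calls (16.6% of the genes), 1055 higher (6.19%) and 1778 lower (10.4%). Without replicate 1 of the line 9185 genes were called (53.9%), 4030 higher (23.7%) and 5155 lower (30.3%), and 5826 genes were called in the same direction both ways (34.2%). No gene was called in opposite directions, 62 were called only with that library and 3359 only without it. The median log2 difference over all tested genes was -0.03. The shares of 15.6% higher and 19.0% lower are the background for the list counts below. FPKM of the 3 libraries of each genotype did not overlap for 7698 genes (45.2%).

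Leaving out replicate 2 of the line gave 2649 calls, leaving out its replicate 3 gave 2704, and leaving out replicate 3 of wild type gave 3364. Fitted on the 6 salt-treated libraries alone, 2000 genes were called, 63.0% of them higher, against 45.0% in the model of 12 libraries. Among the genes given with values here and in the sections below, that smaller fit no longer called PR1, LHCB4.1, RBCS-1A, EXPA4, CESA2, CTL1, CESA7, CESA8, LAC17, PER64, GER3, FLA11, FLA2, MLP423, PAL3, SIR3, NHX6, CHX17, POX1, POX2, UGT75C1, MYB29, SUR1, CYP79B3, HSP15.4, UBQ10 and TGG1 (edgeR adjusted p 0.05 to 0.11).

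**Figure D2:**
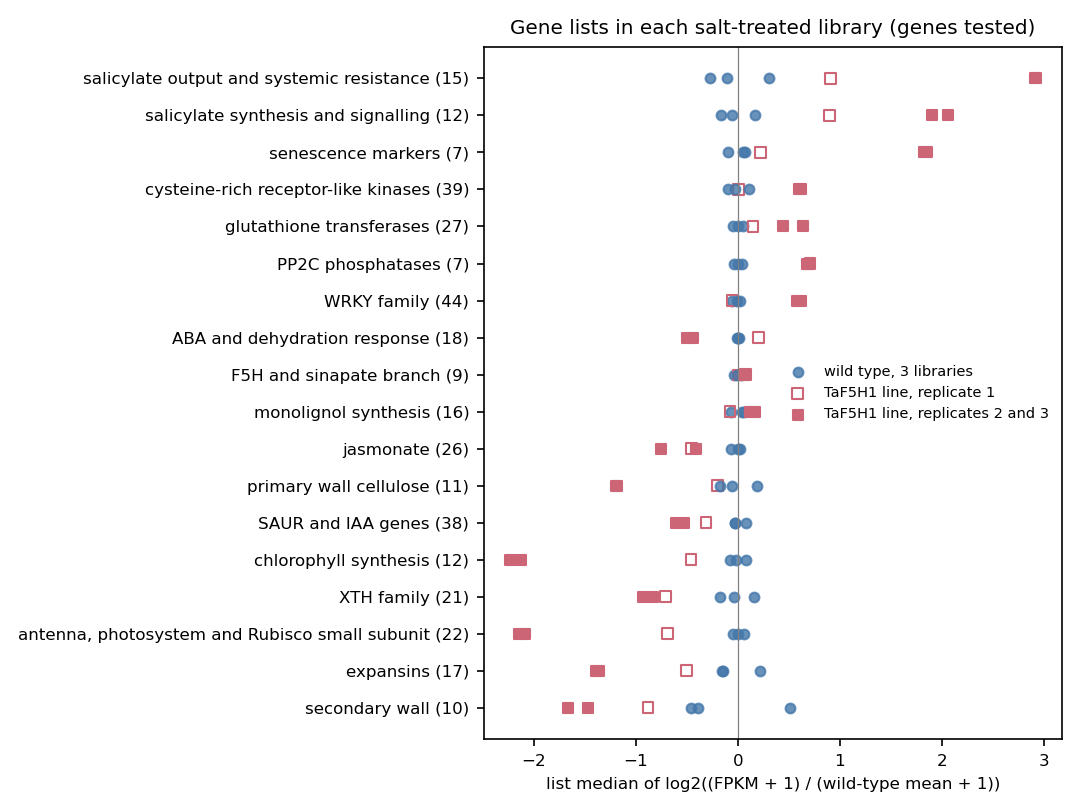
Gene lists in the 6 salt-treated libraries. Each point is the median over a list's tested genes of log2((FPKM + 1) / (wild-type mean + 1)) in 1 library, with circles for wild type, open squares for replicate 1 of the TaF5H1 line and filled squares for replicates 2 and 3. Salicylate and senescence lists lie to the right in the line, wall, antenna and chlorophyll lists to the left, and replicate 1 lies nearer to wild type than its fellows in most lists.

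Genes of the ferulate 5-hydroxylase branch differed one by one. FAH1 (locus AT4G36220 on chromosome 4, 17137313 to 17139777, CYP84A1 in the table) encodes the plant's own enzyme of this step. It was at 9.15, 8.55 and 8.87 FPKM in wild type and at 12.5, 31.8 and 33.3 in the line. The genotypes did not overlap, and replicate 1 was the lowest of the line. The log2 difference was 1.51 ± 0.28 (SE, n = 3 against 3, edgeR adjusted p = 0.0038) and 1.83 without replicate 1. Without salt FAH1 was at 12.59, 13.6 and 13.55 in wild type and at 23.1, 23.3 and 17.6 in the line. These did not overlap but were not called (0.60, edgeR adjusted p = 0.16). The interaction was not called for FAH1 (edgeR adjusted p = 0.15). UGT84A2 (AT3G21560, chromosome 3, 7595680 to 7597607), which makes the sinapoyl glucose from which leaf sinapate esters are built, was at 7.48, 6.53 and 8.86 in wild type and at 24.3, 28.6 and 29.1 in the line. Its 3 line libraries lay close together, replicate 1 included, and the difference was 1.82 ± 0.14 (edgeR adjusted p = 0.00027). Without salt UGT84A2 was at 8.58, 7.56 and 7.09 in wild type and at 8.65, 7.45 and 6.94 in the line, which overlap.

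SNG1, the acyltransferase that turns sinapoyl glucose into sinapoyl malate, was lower in the line (99.9, 90.8 and 102 FPKM against 51.5, 68.6 and 64.4, log2 difference -0.69 ± 0.12, edgeR adjusted p = 0.0036). The methyltransferase OMT1 that acts after ferulate 5-hydroxylase was at 132, 133 and 142 in wild type and at 143, 212 and 193 in the line, just short of the threshold (0.40 ± 0.14, edgeR adjusted p = 0.052). It was called without replicate 1 (0.54, edgeR adjusted p = 0.0018). CYP84A4, a relative of FAH1 that makes arabidopyrones, was at 5.16, 3.49 and 4.27 in wild type and at 4.17, 1.21 and 1.05 in the line, where replicate 1 lay within the wild-type range. It was not called with all libraries (-1.02, edgeR adjusted p = 0.11) and was called lower without replicate 1 (-1.97, edgeR adjusted p = 0.00031). Of the 9 tested genes of the sinapate branch 3 were higher and 1 lower, with a median of -0.09 against -0.03 over all genes (4 higher and 3 lower without replicate 1). The sign of that small median turned under other settings, to 0.10 with no filter on low expression.

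In the general monolignol pathway 1 of 16 genes was higher and 3 were lower (median 0.06), beside 34.6% called among all genes. Without replicate 1 of the line 3 were higher and 3 lower, and without its replicate 2 there was 1 of each. The higher gene was 4CL5 (4CL4 in the table), a coumarate-CoA ligase known for its action on sinapate, at 14.8, 19.0 and 12.6 FPKM in wild type and at 26.4, 66.5 and 63.9 in the line (1.71 ± 0.29, edgeR adjusted p = 0.0032). The phenylalanine ammonia-lyase PAL2, which feeds the whole pathway, was at 13.0, 14.6 and 15.7 against 9.58, 9.50 and 10.9 (-0.56 ± 0.14, edgeR adjusted p = 0.013), a call that ended without replicate 2 of the line (edgeR adjusted p = 0.053). PAL3, a minor isoform, was also lower (1.11, 0.87 and 1.03 against 0.58, 0.28 and 0.21, log2 difference -1.52).

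Lignin polymerization split in direction, with 3 of 9 genes higher and 3 lower. Without replicate 1 of the line 5 were higher and 3 lower, and without any other salt-treated library 1 or 2 were higher and 0 to 2 lower. The abundant wall peroxidase PER34 was at 1292, 1195 and 1058 FPKM in wild type and at 1618, 3396 and 3250 in the line (1.18 ± 0.25, edgeR adjusted p = 0.0063). PER64, the peroxidase of the Casparian strip, was at 0.51, 2.19 and 23.8 in wild type and at 0.14, 0 and 0 in the line. Its wild-type level came almost wholly from replicate 3, the library with the high meristem markers, and its call (-7.51, edgeR adjusted p = 0.013) ended without that library or without replicate 2 or 3 of the line (edgeR adjusted p 0.053 to 0.056). The lignin laccase LAC17, at 0.78, 1.52 and 5.07 against 0.61, 0.27 and 0.37, was called (-2.57, edgeR adjusted p = 0.026) and lost the call on leaving out the same libraries (edgeR adjusted p 0.087 to 0.14).

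Flavonoid and anthocyanin genes were higher in 4 of 11 cases and lower in none (median 0.93). The count was 6 higher and 1 lower without replicate 1 of the line, and 1 higher without its replicate 3 or replicate 2 of wild type. The anthocyanin regulator MYB90 (PAP2) was at 13.9, 13.1 and 10.4 FPKM in wild type and at 63.2, 84.1 and 118 in the line, with replicate 1 near its fellows (2.78 ± 0.33, edgeR adjusted p = 0.0018). GSTF12, which carries anthocyanin to the vacuole, was at 9.06, 3.93 and 8.06 against 16.4, 23.0 and 29.9 (1.69, edgeR adjusted p = 0.024). The glucosyltransferase UGT75C1 was at 7.11, 4.88 and 8.28 against 14.4, 9.25 and 15.5 (0.93, edgeR adjusted p = 0.016). Leaving out replicate 2 of wild type or replicate 3 of the line ended both of these calls, and leaving out replicate 3 of wild type or replicate 2 of the line also ended that of GSTF12 (edgeR adjusted p 0.055 to 0.087).

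All 12 measured genes of salicylate synthesis and signalling were higher in the line, with a median log2 difference of 1.79 (2.05 without replicate 1, again 12 of 12), beside 15.6% higher and a median of -0.03 over all genes. Leaving out any other salt-treated library gave 9 or 10 higher, and the fit on 6 libraries gave 9. Without salt 3 of the 12 were higher. ICS1 (EDS16 in the table, AT1G74710, chromosome 1, 28070295 to 28074177), the isochorismate synthase that makes most stress-induced salicylate, was at 6.06, 13.8 and 10 FPKM in wild type and at 31.6, 49.7 and 39.5 in the line. The groups did not overlap, and the difference was 1.98 ± 0.44 (edgeR adjusted p = 0.0079). PBS3, which joins glutamate to isochorismate in a later step, was at 17.0, 27.9 and 20.9 in wild type and at 74.2, 167 and 153 in the line (2.54 ± 0.39, edgeR adjusted p = 0.0026). ICS1 and the factors SARD1 and CBP60G are named here after their values were seen.

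The transcription factors that switch on ICS1 were higher as well. SARD1 (AT1G73805, chromosome 1, 27744790 to 27749248), whose upstream window with 4 W-box cores is printed above, was at 7.66, 15.0 and 8.13 FPKM in wild type and at 23.9, 85.2 and 67.6 in the line (2.47 ± 0.41, edgeR adjusted p = 0.0031). Its partner CBP60G was at 11.04, 21.2 and 12.8 against 29.8, 180 and 150 (2.94 ± 0.60, edgeR adjusted p = 0.0060). In both genes replicate 1 of the line lay above every wild-type library and well below its fellows. The lipase-like PAD4, which acts upstream with EDS1, was at 10.7, 12.7 and 10.1 against 21.1, 44.7 and 43.8 (1.67 ± 0.25, edgeR adjusted p = 0.0024). NUDT6, a nucleotide hydrolase of the same list, was higher by 3.02 ± 0.49 (edgeR adjusted p = 0.0031).

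Genes of salicylate output and systemic resistance followed, with 14 of 15 higher, none lower and a median of 2.70 (15 of 15 and 3.12 without replicate 1). Leaving out any other salt-treated library gave 12 or 13 higher, and the fit on 6 libraries gave 11. Without salt 5 of the 15 were higher and none lower (median 0.31), beside 7.34% higher over all genes. PR1 (AT2G14610), the usual marker of the salicylate response, was at 2.51, 18.5 and 0.47 FPKM in wild type and at 37.1, 280 and 317 in the line. Wild type itself spread widely here, yet its highest library stayed below the lowest of the line, and the difference was 4.80 ± 1.16 (edgeR adjusted p = 0.011). PR1 was also higher in the line without salt, at 0.47, 0.40 and 0.81 against 143, 126 and 19.3 (7.30, edgeR adjusted p = 0.0071). It was not called in the interaction. FMO1, the monooxygenase that makes the mobile immune signal N-hydroxypipecolate, was at 0.33, 1.09 and 0.59 against 3.65, 21.8 and 26.4 (4.63 ± 0.80, edgeR adjusted p = 0.0034). FMO1 was higher without salt as well (4.29, edgeR adjusted p = 0.020), with no interaction call. SARD4, which serves pipecolate synthesis before it, was at 15.6, 22.5 and 18.7 against 33.0, 86.4 and 83.1 (1.79 ± 0.29, edgeR adjusted p = 0.0031).

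WRKY54, WRKY70 and NIMIN1, regulators among the output genes, had lower FPKM in salt-treated wild type than without salt, and were higher in the line than in wild type under salt. WRKY54 was at 4.24, 5.22 and 2.69 FPKM in wild type under salt and at 10.2, 36.8 and 34.8 in the line (2.70 ± 0.42, edgeR adjusted p = 0.0026), while without salt it was at 31.6, 34.0 and 28.8 in wild type and at 49.9, 45.4 and 29.1 in the line. Its close relative WRKY70, picked after its values were seen, was at 52.1, 69.0 and 38.0 against 99.0, 434 and 409 under salt (2.51 ± 0.44, edgeR adjusted p = 0.0036), and without salt at 167, 208 and 167 in wild type and at 208, 230 and 149 in the line. NIMIN1, which binds the salicylate receptor NPR1 and tempers PR1, was at 1.55, 2.96 and 2.15 against 5.05, 46.4 and 40.9 (3.74 ± 0.64, edgeR adjusted p = 0.0033). Thus the line's replicates 2 and 3 had levels near or above those of seedlings without salt for WRKY54, WRKY70 and NIMIN1, and its replicate 1 had levels between wild type under salt and its own fellows. NIMIN1 without salt was at 23.0, 23.5 and 19.9 in wild type and at 12.6, 20.3 and 12.4 in the line.

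**Figure D3:**
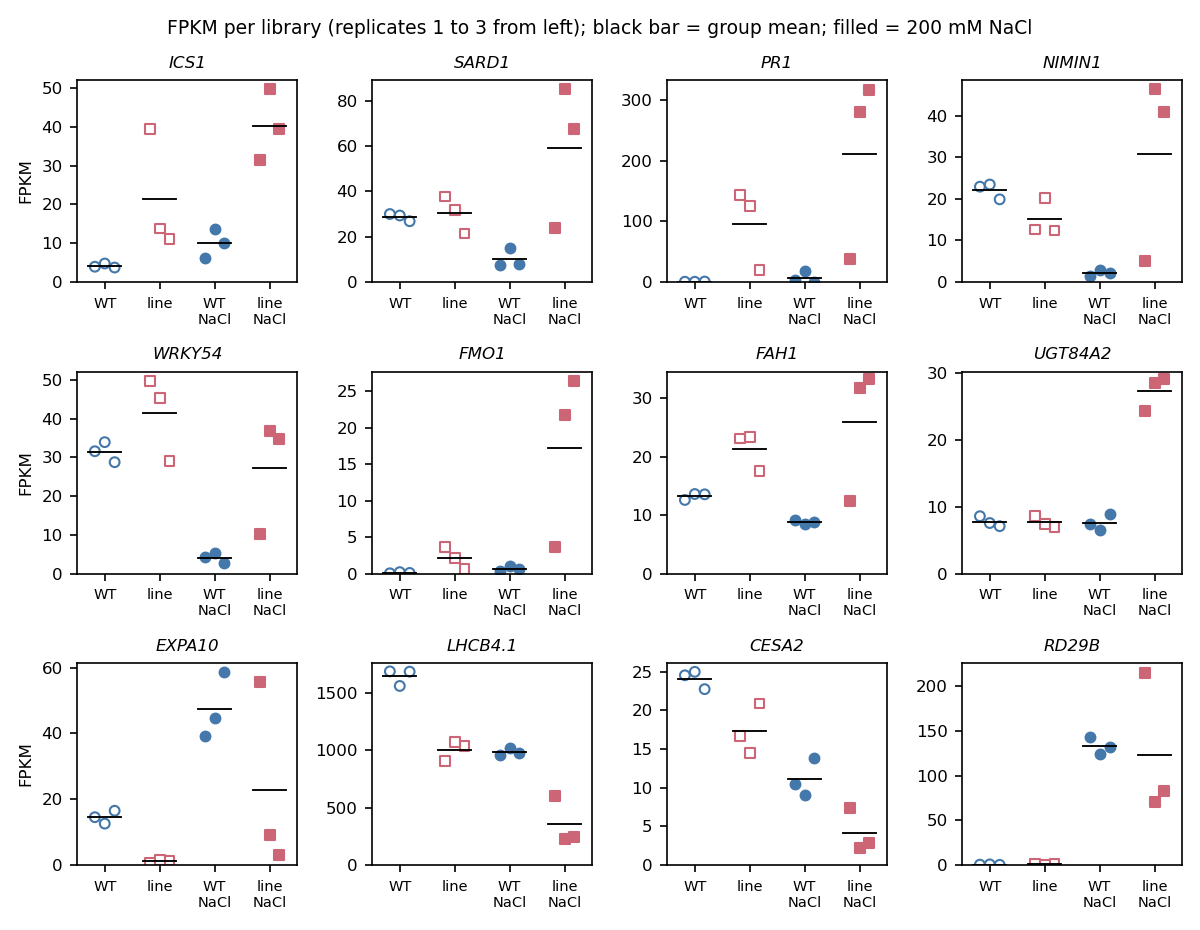
FPKM of 12 genes in every library. Points are libraries (replicates 1 to 3 from left), black bars are group means, circles are wild type, squares are the TaF5H1 line, and filled symbols are the 200 mM NaCl groups. ICS1, SARD1, EXPA10 and RD29B appear as examples picked after their values were seen or by other parts of the naming rule. In the salicylate genes replicates 2 and 3 of the salt-treated line stand highest or near the untreated levels, and in EXPA10 and LHCB4.1 they stand lowest of the salt-treated libraries.

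Other defence families were higher in part. Of 44 WRKY factors 17 were higher and 0 lower (median 0.38), 38.6% called beside 34.6% called and 15.6% higher over all genes. Of these factors 28 were higher and 2 lower without replicate 1 of the line. Without any other salt-treated library 8 to 12 were higher. WRKY75, a factor tied to phosphate and to senescence, was at 5.36, 7.59 and 6.28 FPKM against 21.8, 167 and 174 (4.19 ± 0.67, edgeR adjusted p = 0.0029). WRKY51 was at 1.27, 3.5 and 1.81 against 7.01, 59.8 and 46.1 (4.04 ± 0.70, edgeR adjusted p = 0.0033). Without salt 9 of the 44 were higher and 1 lower. WRKY75 and WRKY51 were also higher there (5.49 and 2.42, edgeR adjusted p = 0.0077 and 0.030), with no interaction call for either. Cysteine-rich receptor-like kinases were higher in 18 of 39 cases and lower in 5 (median 0.81), with 10 or 11 higher without replicate 2 or 3 of the line or replicate 1 or 3 of wild type. CRK36 was at 2.78, 6.03 and 4.53 against 12.6, 81.1 and 66.0, whereas CRK41 went the other way, at 10.5, 14.1 and 10.3 against 4.12, 3.25 and 4.18 (-1.63 ± 0.20, edgeR adjusted p = 0.0014). Without salt 12 of the 39 kinases were higher and 2 lower. CRK36 was among the higher (2.81, edgeR adjusted p = 0.0077), and CRK41 was not called.

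Genes of pattern-triggered immunity and camalexin were higher in 4 of 12 cases and lower in 2 (median 0.28). FRK1 (SIRK), a receptor kinase used as a marker of flagellin responses, was at 0.68, 1.07 and 1.31 FPKM against 2.11, 10.5 and 10.2 (2.86 ± 0.56, edgeR adjusted p = 0.0050). PAD3 (CYP71B15), the last enzyme of camalexin synthesis, was at 5.97, 8.14 and 4.85 against 14.4, 51.6 and 46.3 (2.52 ± 0.42, edgeR adjusted p = 0.0031). Without salt 5 of the 12 were higher and 1 lower. FRK1 and PAD3 were also higher there (3.13 and 2.32, edgeR adjusted p = 0.0074 and 0.0045), with no interaction call for either. Glutathione transferases were higher in 13 of 27 cases and lower in 6 (median 0.70), and without any salt-treated library other than replicate 1 of the line in 7 to 10 and 1 to 4. Among them was GSTF7 at 19.5, 20.7 and 12.4 against 36.1, 156 and 130 (2.56 ± 0.49, edgeR adjusted p = 0.0047). GSTU19 was higher by 1.73 ± 0.29 and GSTU13 lower by a log2 difference of -1.58 ± 0.29 (edgeR adjusted p = 0.0032 and 0.0040). Without salt 11 of the 27 transferases were higher and none lower. GSTF7 was among these (1.60, edgeR adjusted p = 0.044), while GSTU19 and GSTU13 were not called.

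The 12 largest increases under the naming rule had varied roles. PMEI12, a pectin methylesterase inhibitor, had 0 counts in the 3 wild-type libraries and 1.31, 12.9 and 13.5 FPKM in the line, at least 130-fold higher against 3 counts over the wild-type group (edgeR adjusted p = 0.0066). ARD, an enzyme of the methionine salvage cycle, was at 0.56, 0.89 and 0.43 against 11.5, 183 and 169 (7.52 ± 1.2, edgeR adjusted p = 0.0028). The xyloglucan enzyme gene XTH10 was at 0.35, 0.24 and 0.75 against 4.97, 60.8 and 58.5 (6.50 ± 0.89, edgeR adjusted p = 0.0019). The fatty acid dioxygenase DOX1, the strigolactone gene CCD8 and the ABA transporter gene ABCG40 were higher by 5.92, 5.56 and 5.36, and UGT76B1, which glucosylates salicylate and isoleucic acid, by 4.54 (edgeR adjusted p = 0.011, 0.0039, 0.0033 and 0.0024). The rest of the 12 were UGT73D1, PMEI10 and FOX2, at 4.71 to 4.78, with FMO1 and PR1.

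The 12 genes that set replicate 1 of the line most apart from its fellows, among those with a mean of at least 20 FPKM in the salt-treated line, were TGG1, TGG2, EXPA10, ELP, BAM5 and TBL26, highest there, and DOX1, ABCG40, ARD, PME17, XTH10 and NIT2, lowest there. TGG1, a myrosinase of the mustard oil defence, was at 530, 398 and 568 FPKM in wild type and at 204, 11.1 and 20.6 in the line. Replicate 1 was below every wild-type library and far above its fellows. TGG1 was called (-2.65, edgeR adjusted p = 0.033), and the call ended on leaving out any one of the 3 wild-type libraries or of replicates 2 and 3 of the line (edgeR adjusted p 0.054 to 0.096). TGG2, with the same order of libraries, and the expansin gene EXPA10 (ATEXPA10), at 39.3, 44.5 and 58.5 FPKM against 55.6, 9.20 and 3.18, were not called (edgeR adjusted p = 0.072 and 0.27), although they were at -4.19 and -2.96 without replicate 1. A set of 1016 genes was called at least 4-fold apart without replicate 1, with a mean of at least 5 FPKM in the higher group. For 96.3% of them replicate 1 lay between the wild-type mean and the mean of its fellows. On a scale of plain FPKM, without logs, from the wild-type mean at 0 to the mean of its fellows at 1, its median place was 0.145 for the 385 higher genes and 0.466 for the 631 lower genes. Such a scale treats higher and lower genes unlike, so these medians cannot be set against each other.

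Photosynthesis genes were lower in the line in most cases. Of 22 antenna, photosystem and Rubisco small subunit genes 20 were lower and none higher, with a median of -1.49 (22 of 22 and -2.29 without replicate 1), beside 19.0% lower among all genes. The count was 13 without replicate 2 of the line, 14 without its replicate 3, 16 to 19 without a wild-type library and 2 in the fit on 6 libraries. LHCB4.1 (AT5G01530), a linker of the photosystem II antenna whose upstream window with a G-box is printed above, was at 953, 1020 and 978 FPKM in wild type and at 599, 229 and 246 in the line (-1.47 ± 0.33, edgeR adjusted p = 0.0081). RBCS-1A, the chief Rubisco small subunit gene, was at 2736, 2863 and 2986 against 1380, 317 and 278 (-2.12 ± 0.52, edgeR adjusted p = 0.012). Replicate 1 lay between the wild-type libraries and its fellows in both. LHCB2.4, an antenna gene of lower level, differed less between replicates, at 6.98, 8.62 and 8.62 against 3.66, 3.06 and 4.42 (-1.15 ± 0.18, edgeR adjusted p = 0.0028). Antenna and Rubisco genes have near-identical copies, so reads may be divided between them in an unknown way.

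Chlorophyll synthesis moved the same way and breakdown did not. Of 12 synthesis genes 10 were lower and none higher (median -1.42, and 12 of 12 at -2.52 without replicate 1). The count was 4 without replicate 2 or 3 of the line, 5 or 6 without a wild-type library and 2 in the fit on 6 libraries. CHLM, the magnesium protoporphyrin methyltransferase, was at 39.9, 41.5 and 41.5 FPKM in wild type and at 15.9, 7.93 and 5.85 in the line (-2.07 ± 0.30, edgeR adjusted p = 0.0023). PORB, a protochlorophyllide reductase, was at 21.3, 20.9 and 28.6 against 8.52, 3.01 and 3.28 (-2.27 ± 0.35, edgeR adjusted p = 0.0025). Of 7 breakdown genes 3 were higher and 1 lower. The higher ones were NYC1, the chlorophyll b reductase, at 265, 266 and 237 against 396, 850 and 793 (1.37 ± 0.24, edgeR adjusted p = 0.0036), and the stay-green genes SGR1 and SGR2 (1.28 and 1.38).

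Senescence markers were higher in 6 of 7 cases and lower in none, with a median of 1.62 (1.87 without replicate 1), and 5 of the 7 were also higher without salt. The count under salt was 4 or 5 without any other salt-treated library and 4 in the fit on 6 libraries. In a second marker set of 7, partly the same genes, 5 were higher. PAO in that set was at 276, 285 and 272 FPKM in wild type and at 320, 275 and 261 in the line, and WRKY53 at 37.2, 65.6 and 39.6 against 36.0, 40.1 and 58.6. SAG13 was at 426, 460 and 316 FPKM in wild type and at 743, 2186 and 2062 in the line (2.01 ± 0.41, edgeR adjusted p = 0.0059). NAC92 (ORE1), a factor that drives leaf ageing, was at 55.7, 52.7 and 54.4 against 83.7, 182 and 148 (1.31 ± 0.24, edgeR adjusted p = 0.0040). SWEET15 (SAG29), a sugar exporter, was at 17.7, 10.1 and 16.5 against 60.6, 56.0 and 55.2, and here replicate 1 was level with its fellows (1.93 ± 0.28, edgeR adjusted p = 0.0030). SAG12, a protease that marks late senescence and was picked after its values were seen, was at 0.15, 0.14 and 0.04 in wild type and at 0.13, 14.5 and 20.3 in the line. Its replicate 1 lay at the wild-type level, and its call (6.58, edgeR adjusted p = 0.019) ended on leaving out any one wild-type library or replicate 3 of the line (edgeR adjusted p 0.055 to 0.068). The leaf marker genes, which include photosynthesis genes, were lower beside these lists, with the sums given above, and their part in the results was not tested.

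Wall-loosening genes were lower in the line. Of 17 expansins 11 were lower and none higher (median -1.81), with 14 lower and 1 higher without replicate 1, and 8 were lower without salt. The count was 4 without replicate 2 of the line, 6 without its replicate 3, 5 without replicate 3 of wild type, 8 or 9 without its other libraries and 2 in the fit on 6 libraries. EXPA16 was at 53.8, 66.8 and 51.9 FPKM in wild type and at 22.9, 7.13 and 8.42 in the line (-2.19 ± 0.37, edgeR adjusted p = 0.0032). EXPA4 was at 16.1, 19.0 and 18.2 against 7.80, 1.97 and 2.01 (-2.20 ± 0.44, edgeR adjusted p = 0.0056), and EXPA6 at 4.43, 5.74 and 10.9 against 1.9, 1.34 and 1.31. Xyloglucan transferases and hydrolases were lower in 13 of 21 cases and higher in 3 (median -1.29), and 13 were lower without salt. The lower count was 6 or 7 without replicate 2 or 3 of the line or replicate 3 of wild type. XTH4, XTH6, XTH8 and XTH32 were lower by log2 differences of -2.87 to -3.43, in contrast to XTH10 above.

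Cellulose synthesis of the primary wall was lower in 6 of 11 cases and higher in none (median -0.83), and in 11 of 11 without replicate 1 (median -1.34). CESA2, a catalytic subunit, was at 10.5, 9.08 and 13.8 FPKM against 7.31, 2.15 and 2.84 (-1.45 ± 0.37, edgeR adjusted p = 0.014). CTL1, a chitinase-like protein needed for cellulose assembly, was at 157, 145 and 177 against 118, 36.0 and 42.5 (-1.29 ± 0.37, edgeR adjusted p = 0.021). Both calls ended without replicate 3 of wild type (edgeR adjusted p = 0.051 for CESA2 and 0.061 for CTL1). The list count was 0 without that library or replicate 3 of the line, 1 without replicate 2 of the line and 2 or 4 without the other wild-type libraries, with medians of -0.66 to -0.89. They also ended without replicate 3 of the line, and that of CTL1 without replicate 2 of the line or replicate 1 of wild type (edgeR adjusted p 0.052 to 0.083).

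Secondary wall genes were lower in 7 of 10 cases and higher in 1 (median -2.01). None was called without salt and none in the interaction, so a difference between the conditions was not shown for them. The count of lower genes was 1 without replicate 3 of wild type, 1 without replicate 2 of the line and 2 without its replicate 3, with medians of -1.49 to -1.88. It was 1 in the fit on 6 libraries. Of the 5 vascular markers, 4 were tested and 1 was called lower. Their summed FPKM under salt was 120, 125 and 158 in wild type and 106, 73.1 and 87.1 in the line. The part of vascular tissue in the result was not tested. The cellulose synthases of the secondary wall, CESA4, CESA7 and CESA8, were at 1.79, 0.71 and 0.89 FPKM in replicate 1 of wild type, at 2.03, 1.24 and 1.54 in its replicate 2 and at 6.59, 6.17 and 6.06 in its replicate 3. In the line they were at 0.79, 0.46 and 0.78 in replicate 1, at 0.43, 0 and 0.10 in replicate 2 and at 0.67, 0.21 and 0.08 in replicate 3. In the line without salt CESA4 was at 1.37, 3.91 and 1.40, highest in replicate 2, whose meristem markers were also raised. Without replicate 3 of wild type CESA7 and CESA8 were no longer called (edgeR adjusted p = 0.18 and 0.14, and 0.098 to 0.10 without replicate 2 or 3 of the line), and CESA4 was still called (highest edgeR adjusted p over the alternatives 0.044). The exception in direction was FRA8 (IRX7), a xylan synthesis gene, at 5.63, 4.79 and 5.53 against 7.36, 29.5 and 31.0 (2.04 ± 0.44, edgeR adjusted p = 0.0074).

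The largest decreases under the naming rule showed the same library in several genes. The fasciclin-like gene FLA11, known from secondary walls, was at 3.45, 6.51 and 26.7 FPKM in wild type and at 2.44, 0.25 and 1.27 in the line, and the germin-like gene GER3 at 0.33, 2.44 and 13.7 against 0.23, 0.05 and 0. Both calls ended without replicate 3 of wild type (edgeR adjusted p = 0.17 and 0.088) and without replicate 2 or 3 of the line (edgeR adjusted p 0.071 to 0.12). Without salt GER3 was also lower in the line, at 203, 129 and 129.5 against 1.03, 5.27 and 13.0 (-4.67, edgeR adjusted p = 0.0098). FLA11 was not called there. Others kept their calls without replicate 3 of salt-treated wild type: ARR7, a response regulator that dampens cytokinin signalling, was at 6.59, 5.97 and 10.8 against 0.99, 0.44 and 0.87 (-3.38 ± 0.32, edgeR adjusted p = 0.00043). EXL5 was at 4.66, 3.93 and 11.3 against 0.89, 0.50 and 0.81 (-3.20 ± 0.42, edgeR adjusted p = 0.0017). FLA2, BHLH137, MLP423, GASA4 and GASA7, the last pair gibberellin-regulated, were lower by log2 differences of -2.67 to -3.73.

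Auxin-response and cell cycle genes held calls as well. Among SAUR and IAA genes, which respond early to auxin, 16 of 38 were lower and 3 higher (median -1.27), against 25 lower and 4 higher without replicate 1 of the line, 8 lower without its replicate 3 and 10 without its replicate 2 or replicate 3 of wild type. SAUR78 was at 22.04, 21.3 and 21.4 FPKM in wild type and at 11.4, 10.2 and 7.56 in the line (-1.17 ± 0.17, edgeR adjusted p = 0.0023), and SAUR50 at 2.27, 0.53 and 3.36 against 0.07, 0.05 and 0. Of 10 cyclins 6 were lower and none higher (median -0.95), with 2 to 4 lower without any salt-treated library other than replicate 1 of the line. CYCD3;2, a G1 cyclin, was at 14.0, 14.3 and 14.4 against 8.24, 7.22 and 6.33 (-1.0 ± 0.14, edgeR adjusted p = 0.0020).

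Genes of the salt and ABA response held few calls. Among 18 ABA and dehydration genes 2 were higher and none lower (median -0.12). Without replicate 1 of the line 3 were higher and 8 lower (median -0.50), and without any other salt-treated library none was called. RD29B (LTI65), a reporter of ABA signalling, was at 143, 125 and 133 FPKM in wild type and at 215, 70.0 and 83.0 in the line. Replicate 1 was thus the highest of all 6 libraries and its fellows the lowest, and the difference was -0.13 (edgeR adjusted p = 0.82), or -0.85 without replicate 1 (edgeR adjusted p = 0.0021). The dehydrin gene XERO2 was at 474, 517 and 532 against 795, 801 and 878, and the NAC factor RD26 at 308, 307 and 288 against 455, 536 and 552 (0.67 and 0.74, edgeR adjusted p = 0.022 and 0.021). Both calls ended on leaving out any one library of either salt-treated group other than replicate 1 of the line (edgeR adjusted p 0.051 to 0.074).

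The PP2C phosphatases that restrain ABA signalling were higher in 6 of 7 cases and lower in none (median 0.67), a count that was the same without replicate 1. It was 4 or 5 without any other salt-treated library. None of the 7 was called without salt and none in the interaction, so a difference between the conditions was not shown for them. ABI2 was at 42.7, 44.9 and 51.0 FPKM in wild type and at 89.1, 74.5 and 68.2 in the line (0.72 ± 0.14, edgeR adjusted p = 0.0053). HAB1 was at 118, 122 and 117 against 196, 231 and 215 (0.81 ± 0.18, edgeR adjusted p = 0.0072). In these genes replicate 1 lay with its fellows. The receptor PYL7 was lower (-0.79 ± 0.14, edgeR adjusted p = 0.0035), the only call among 7 receptors. Among 10 ABA kinases and factors 2 were higher and none lower under salt (3 and 1 without replicate 1 of the line). Without salt 7 of the 10 were higher and none lower, and 2 had a negative interaction. The 2 higher under salt were the homeodomain factors ATHB-7 and ATHB-12, targets of the pathway. ATHB-7 was at 226, 206 and 183 against 347, 494 and 477 (1.06, edgeR adjusted p = 0.0044). ATHB-12 was at 177, 161 and 157 against 319, 415 and 398 (1.16, edgeR adjusted p = 0.0014). Both were also higher without salt (1.55 and 1.06, edgeR adjusted p = 0.0010 and 0.0014), with no interaction call for either.

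ABA synthesis and breakdown had 4 higher and 1 lower of 10 genes (median 0.16), and 3 higher and 4 lower without replicate 1 of the line (median 0.02). NCED3, the rate-limiting dioxygenase, was at 68.4, 85.4 and 62.2 FPKM against 103, 104 and 105, without overlap but not called (0.50 ± 0.27, edgeR adjusted p = 0.17). The ABA aldehyde oxidase AAO3 was at 12.6, 14.2 and 15.2 against 19.96, 27.8 and 25.9 (0.77 ± 0.16, edgeR adjusted p = 0.0056), and its cofactor gene ABA3 (SIR3) was higher by 1.01 ± 0.23 (edgeR adjusted p = 0.0089). CYP707A4, which breaks ABA down, was also higher (1.57 ± 0.32, edgeR adjusted p = 0.0056).

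The main sodium transporters were not called. SOS1 (NHX7), which exports sodium from cells, was at 4.79, 4.80 and 5.35 FPKM in wild type and at 4.51, 4.79 and 5.19 in the line (-0.07 ± 0.16, edgeR adjusted p = 0.75). NHX1, which moves sodium into the vacuole, was at 222, 222 and 206 against 260, 234 and 233 (0.13 ± 0.16, edgeR adjusted p = 0.54). HKT1, which retrieves sodium from the xylem, was at 0.22 in each wild-type library and at 0.03, 0.07 and 0.06 in the line, below the level needed for a test. Of 19 ion transport genes 5 were higher and 2 lower (7 and 3 without replicate 1 of the line, 3 higher without its replicate 3 or replicate 3 of wild type). The share called, 36.8%, was near the 34.6% over all genes. The potassium carrier POT6 was at 11.3, 10.7 and 10.3 against 16.8, 26.9 and 27.6 (1.11 ± 0.21, edgeR adjusted p = 0.0041). The endosomal exchanger NHX6 was higher by 0.94 ± 0.20, and CHX17 was at 0.36, 0.65 and 0.40 against 0.62, 10.03 and 7.77 (edgeR adjusted p = 0.0073 and 0.0084).

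Osmolyte genes were called in 2 of 12 cases, both higher and both of proline breakdown. Without replicate 1 of the line 2 were higher and 5 lower, and without any other salt-treated library 0 or 1 was called. P5CS1 (P5CSA), the rate-limiting enzyme of proline synthesis, was at 234, 189 and 230 FPKM in wild type and at 215, 69.5 and 81.9 in the line. With replicate 1 inside the wild-type range it was not called (-0.84, edgeR adjusted p = 0.11), and without that library it was called lower (-1.57, edgeR adjusted p = 0.00014). The proline dehydrogenase genes POX1 and POX2 were higher by 1.04 and 0.93 (edgeR adjusted p = 0.015 and 0.039), and both calls ended without replicate 1 of wild type or replicate 2 or 3 of the line (edgeR adjusted p 0.053 to 0.16). That of POX2 also ended without any of 4 further libraries, 2 of them not treated with salt (edgeR adjusted p 0.052 to 0.094). Among CBF/DREB and ZAT factors 1 of 7 was higher, DREB2B, at 2.19, 3.21 and 2.88 against 4.88, 8.34 and 6.64 (1.23 ± 0.25, edgeR adjusted p = 0.0061).

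Jasmonate and glucosinolate genes were more often lower. Of 26 jasmonate genes 10 were lower and 2 higher (median -0.60), with 13 lower without replicate 1 of the line and 5 to 7 without any other salt-treated library. OPR3, an enzyme of jasmonate synthesis, was at 523, 518 and 509 FPKM in wild type and at 287, 237 and 251 in the line (-1.03 ± 0.21, edgeR adjusted p = 0.0061). The lipoxygenase LOX4 was at 90.3, 114 and 118 against 45.1, 27.8 and 32.1 (-1.64 ± 0.23, edgeR adjusted p = 0.0020). Against this direction TAT3, a tyrosine aminotransferase often used as a jasmonate marker, was at 123, 130 and 85.6 against 281, 877 and 818 (2.50 ± 0.39, edgeR adjusted p = 0.0025). Of 12 glucosinolate genes 5 were lower and none higher (median -0.88), with 10 lower and 1 higher without replicate 1 of the line and 0 to 2 lower without any other salt-treated library. Among them CYP79B3, which makes indole glucosinolate precursors, was lower by a log2 difference of -0.92, SUR1 by -0.44 and the regulator MYB29 by -1.56 (edgeR adjusted p = 0.022, 0.021 and 0.019), and each of these calls ended on leaving out 1 of 2 to 4 libraries, replicate 3 of the line among them (edgeR adjusted p 0.054 to 0.096).

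Heat shock genes were higher in 8 of 50 cases and lower in 4 (median 0.08), 24.0% called beside 34.6% over all genes. The share higher over all genes was 15.6%. Without replicate 1 of the line 8 were higher and 10 lower (median -0.13), and without any other salt-treated library 2 were higher. One of the higher genes was the endoplasmic reticulum chaperone HSP90-7 at 72.0, 95.3 and 70.2 FPKM against 130, 305 and 244 (1.47 ± 0.29, edgeR adjusted p = 0.0052). Clock genes were called in 5 of 13 cases, all higher (38.5%, beside 34.6% called and 15.6% higher over all genes). FKF1 (ADO3), a light sensor of the flowering pathway, was at 6.36, 6.92 and 7.51 against 18.9, 19.8 and 16.1, with replicate 1 level with its fellows (1.37 ± 0.15, edgeR adjusted p = 0.00094). Iron genes were higher in 4 of 9 cases and lower in 2: the ferritin gene FER3 was at 88.2, 93.8 and 110 against 174, 202 and 219 (1.00 ± 0.13, edgeR adjusted p = 0.0015), and FER1 at 289, 386 and 419 against 746, 815 and 901 (edgeR adjusted p = 0.0061). SWEET exporters had 2 higher and 2 lower of 9 (44.4% called, beside 34.6% over all genes), and 2 and 6 without replicate 1 of the line. Among them were SWEET2 of the vacuole at 9.78, 9.62 and 9.90 against 19.4, 29.5 and 26.2 (1.33 ± 0.14, edgeR adjusted p = 0.00094) and SWEET16, also of the vacuole, lower by a log2 difference of -1.76 ± 0.28.

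Among 4 genes used as references in quantitative PCR, UBQ10 was called, at 768, 751 and 726 FPKM against 944, 1325 and 1339 (0.65 ± 0.17, edgeR adjusted p = 0.014). That call ended without replicate 3 of wild type or replicate 2 or 3 of the line (edgeR adjusted p 0.057 to 0.058). The median of the 4 was -0.03 and turned positive under several other scalings, by at most 0.015.

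The genotype difference under salt was set beside that without salt. Without salt 2371 genes were called (13.9%), 1250 higher (7.34%) and 1121 lower (6.58%). Of the genes higher under salt 567 were also higher without salt (21.4% of the former list and 45.4% of the latter), and 527 were lower in both (16.3% and 47.0%), while 98 were called in opposite directions. The interaction, the log2 genotype difference under salt minus that without salt, was called for 1001 genes (5.88%), 498 positive (2.92%) and 503 negative (2.95%), and 702 of them were also called under salt. Of the 15 salicylate output genes 6 had a positive interaction and none a negative one: NIMIN1, LURP1, WRKY70, WRKY54, SARD4 and WAK1. LURP1 was at 25.4, 29.1 and 13.6 FPKM in wild type and at 45.3, 225 and 223 in the line under salt, and at 575, 353 and 517 and at 488, 408 and 383 without salt.

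Of the light-harvesting list 20 of 22 genes were lower under salt and 2 without salt, and no member was called in the interaction. Chlorophyll synthesis went from 1 to 10 lower genes of 12, again with no interaction call. A difference between the conditions was therefore not shown for any gene of these lists. Jasmonate genes had 4 negative and 1 positive interaction among 26, with LOX4 at -1.65 ± 0.32 and OPR3 at -1.26 ± 0.30 (edgeR adjusted p = 0.021 and 0.034). For the ABA and dehydration list 6 of 18 genes were higher without salt and 2 under salt, with no interaction call.

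**Figure D4:**
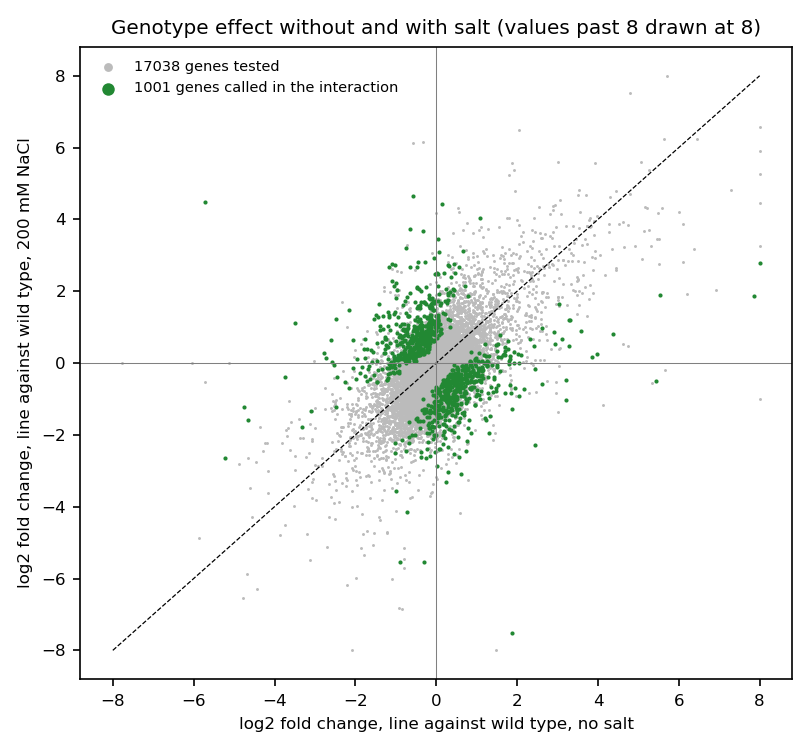
Log2 fold change of the TaF5H1 line against wild type without salt (x axis) and under 200 mM NaCl (y axis). Each point is 1 of 17038 genes, green where the interaction was called (1001 genes), values past 8 are drawn at 8, and the dashed line marks equal differences. Green points lie off the dashed line on both sides, 498 above it and 503 below it.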

How the data were processed

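Messenger RNA was sequenced from leaves in 12 libraries, 3 in each of 4 groups (genotype by NaCl). Extraction used TRIzol and RNeasy reagents, and libraries followed Illumina's standard protocol, per the labels. Tools named in the submitters' processing notes are HISAT2 2.0.1, cutadapt 1.9.1 and bcl2fastq 2.17.1.14, with TAIR10 as the build. Neither the counting program nor its handling of strand and of multiply matching reads is given in the sources used here, which leaves levels of near-identical or overlapping genes uncertain. Raw counts, as deposited by the authors, covered 34218 genes, with library totals of 17173618 to 21651124. The authors also deposited FPKM, which a recalculation from the counts matched within 0.005.

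Tests covered the 17038 genes whose FPKM averaged 1 or more over the 12 libraries. They were run with edgeR 4.0.16 (R 4.3.3; TMM scaling, quasi-likelihood, a mean per group over all 12 libraries). Genes under an adjusted p of 0.05 (Benjamini-Hochberg) count as called. The test was checked on simulated data, in which no library stood apart from its group and far fewer genes differed than were called here. "Higher" and "lower" are used of called genes, the line relative to wild type, and errors are standard errors. For same-numbered libraries of the salt-treated genotypes, deviations from group means correlated at -0.008, 0.15 and -0.15. With 3 libraries per group, these values cannot decide whether replicate numbers pair libraries, and the main model did not pair them. No libraries were alike enough to be duplicates (lowest chi-square per degree of freedom 6.42). Of 32548 loci matched by name, 32532 had the same start and end in RefSeq's TAIR10.1 annotation, and upstream windows of 250 bases were read from that genome.

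Genes were named by rule. The rule took the 12 highest and 12 lowest genes called with and without replicate 1 of the salt-treated line (with a symbol, at least 5 FPKM in the higher group and no overlap). It took the 3 called genes of smallest p of each of 36 lists, and always the sodium transporters SOS1, NHX1 and HKT1, the stress genes RD29B, NCED3 and P5CS1, and OMT1, CYP84A4 and FAH1. It also took the 6 highest and 6 lowest genes of replicate 1 against its fellows at 20 FPKM or more. Genes outside it were chosen after their values were seen: ICS1, SARD1, CBP60G, WRKY70, LURP1, WAK1, CESA7, CESA8, SAG12 and RBCS-1A. The comparison, the lists and these members were chosen with earlier results of these data known. Alternatives were DESeq2 1.42.0, library totals, other filters, the 6 salt-treated libraries alone, limma 3.58.1 on log2(FPKM + 1) or log2(FPKM + 0.1), a replicate block and leaving out each library.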

Additional observations from a re-analysis of the deposited data

Results flagged for a closer look

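For 26 of 144 named genes tested, the log2 genotype difference under salt and that without salt differed by the interaction test (edgeR adjusted p under 0.05). All 26 were also called without replicate 1 of the salt-treated line, a setting that called 6270 genes in the interaction against 1001 with all libraries. Leaving out any other salt-treated library called 129 to 363 genes, and the 26 are not given for those settings. Over all genes 5.88% were called, and both differences come from the one model. Most named genes were picked for their difference under salt, which is part of the interaction, or after values were seen. Their share therefore cannot be set against that over all genes.

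Among genes of salicylate output and synthesis, the difference under salt exceeded that without salt by 4.38 for NIMIN1 (NIMIN-1 in the table), 3.07 for LURP1, 2.49 for SARD1, 2.49 for WRKY70, 2.39 for WRKY54, 1.94 for SARD4 and 1.32 for WAK1. Other positive values were 2.50 for the sugar transporter gene SWEET2, 2.04 for the aminotransferase gene TAT3, 1.92 for the sinapate glucosyltransferase gene UGT84A2 and 1.78 for GSTU19. They were 1.64 for the ribosomal protein gene RPL10C, 1.16 for ADO3 and 1.01 for the ferritin gene FER3. SWEET2 stood at 7.66, 6.99 and 6.71 FPKM in wild type and at 3.18, 3.66 and 3.27 in the line without salt, the reverse of the order under salt.

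Negative values were -1.07 for SUR1, -1.16 for CRK41, -1.26 for OPR3, -1.52 for GSTU13, -1.56 for HSP15.4, -1.59 for CYP79B3 and -1.65 for LOX4. SWEET16 stood at -1.83, EXPA16 at -1.99 and PAL3 at -2.11. MYB90 stood at -7.66, but wild type without salt had 0 counts for it, so this fitted value depends on the prior count and is no bound. PER64 stood at -9.38, and its wild-type level under salt came mostly from replicate 3 of that group (0.51, 2.19 and 23.8 FPKM).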

How the results depend on the processing

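Fitted on the 6 salt-treated libraries alone, 2000 genes were called under salt, against 5888, and leaving out each library in turn gave 2649 to 9185. The other settings stayed within 1.5 times of 5888. Without salt, leaving out each library gave 1160 to 5121 calls against 2371, and leaving out replicate 1 of the salt-treated line with replicate 3 of salt-treated wild type gave 4991. That pair was chosen after seeing the data. The interaction count of 1001 was 2531 with DESeq2, 1569 with limma on log2(FPKM + 1), 5773 without that pair and 129 to 6270 on leaving out each library. With the replicate block 5616 genes were called under salt, 2098 without salt and 644 in the interaction, and the numbers share no source that the labels name. Signs turned for LTI65 (RD29B, -0.13 in the report, -0.87 at its lowest, without that pair) without replicate 2 (0.16) or 3 (0.10) of the salt-treated line, and for PHO1 (-0.10, and -0.24 without replicate 1 of the line) without replicate 3 of salt-treated wild type (0.15) or that pair (0.015). The median of the sinapate branch turned to 0.10 with no filter, 0.37 with a filter of FPKM 5 and 0.14 without replicate 2 of salt-treated wild type (-0.15 without replicate 3 of the line). That of the reference genes turned to 0.015 with DESeq2, 0 with library totals, 0.009 in the 6 libraries and 0.002 with limma at either pseudocount. With all libraries neither gene was called (LTI65 was called lower without replicate 1 of the line), and the causes were not tested. Of the named genes' values under alternatives 3213 kept direction and side of the threshold, 150 lost a call and 42 gained one.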

Other observations

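Genes of phosphate starvation, a list added after values were seen, were higher in the line in 12 of 20 cases under salt and lower in none (median log2 difference 0.81), and higher in 14 without salt. The phosphate sensor gene SPX1 was at 10.5, 5.65 and 6.30 FPKM in wild type and at 21.8, 36.0 and 31.8 in the line under salt (1.96 ± 0.39, edgeR adjusted p = 0.0056). The noncoding RNA gene AT4 was at 6.75, 3.44 and 4.23 against 17.4, 44.0 and 47.1 (2.87 ± 0.36, edgeR adjusted p = 0.0014), and the phospholipase gene PLPZETA2 at 3.88, 4.07 and 4 against 12.3, 36.0 and 26.2 (2.60 ± 0.35, edgeR adjusted p = 0.0017). The acid phosphatase gene PAP17 was at 127, 113 and 98.2 against 257, 316 and 305 (1.34 ± 0.25, edgeR adjusted p = 0.0044). The regulator PHR1 and the ubiquitin conjugase PHO2 (UBC24), which govern the response, were not called (edgeR adjusted p = 0.086 and 0.36).

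Ribosomal protein genes were lower in 35 of 232 cases and higher in 3 (median -0.04). A split by the deposited descriptions, made after values were seen, put 21 of these lower genes among the 23 of plastid ribosomes (median -1.57, and 22 of 23 at -2.18 without replicate 1 of the line) and 14 among the other 209 (median -0.02). RPS31 was at 88.8, 94.5 and 92.7 FPKM in wild type and at 41.0, 16.2 and 17.3 in the line (-1.91 ± 0.31, edgeR adjusted p = 0.0030). RPL10C went the other way, at 85.5, 95.5 and 83.2 against 157, 491 and 401 (1.95 ± 0.31, edgeR adjusted p = 0.0029).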
